A study of Mus musculus with 6 samples.

Results

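The proteasome genes of naive CD4 T cells were examined with and without the mRNA cap methyltransferase RNMT. Members were all genes of the authors' comparison table whose symbol starts with Psm, followed by a letter from a to g and a number, which gave 48 of the 11221 genes in that table and of the 46983 genes in the count tables. The cells were sorted from mouse lymph nodes by flow cytometry on surface markers of naive CD4 T cells, with DAPI to leave out dead cells, and RNA depleted of rRNA was sequenced. There were 3 control libraries, labelled Rnmt fl/fl CD4cre -, and 3 Rnmt cKO libraries, labelled Rnmt fl/fl CD4cre +, all from males. All animals therefore carried floxed Rnmt, in which loxP sites flank an exon of the gene. Only the Rnmt cKO animals carried Cre under Cd4 control, which acts from the double positive thymocyte stage onwards, so the presence of Cre and the loss of Rnmt cannot be told apart. The labels do not say that the libraries of a group came from separate animals, so p-values measure the spread between these samples. A figure legend of the paper gives n = 3 mice per group for RNA sequencing of naive CD4 T cells.

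The proteasome is the protease of the cytosol and nucleus that degrades proteins tagged with ubiquitin. Its 20S core is a barrel of alpha rings outside and beta rings inside, and 3 of the beta subunits, encoded by Psmb5, Psmb6 and Psmb7, carry the proteolytic sites. In lymphocytes and in cells exposed to interferon, Psmb8, Psmb9 and Psmb10 encode replacements for these subunits and form the immunoproteasome, which is known for producing peptides presented by MHC class I. The 19S particle binds, unfolds and deubiquitinates substrates, and PA28 alpha/beta, encoded by Psme1 and Psme2, is an interferon-inducible cap that takes the place of the 19S particle on the core. Dedicated chaperones build the core (Psmg1 to Psmg4) and the base of the 19S particle (Psmd5, Psmd9 and Psmd10).

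By role, the members were 7 genes of alpha subunits, 7 of standard beta subunits, 3 of immunoproteasome beta subunits, 2 of PA28 alpha/beta, 17 of the 19S particle, 3 of 19S chaperones, 4 of 20S chaperones and 3 of other activators or inhibitors. The other 2 matched by symbol only. Psme2b has no intron within its 837 bases and is a near copy of Psme2, so reads of either can be lost or misassigned, and Psmc3ip encodes a factor of meiotic recombination. All 48 members had more than 1 CPM (sense counts scaled to a common library size with TMM factors) in all 6 libraries, with 1.69 CPM as the lowest value. Psmb11, which encodes the beta subunit specific to thymic epithelium and is no member, had 0, 1 and 0 counts in the controls and 0 in each Rnmt cKO library.

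Promoter stretches are shown for the genes on which the results turn, because proteasome genes are known targets of interferon factors, of NRF-type factors and of ETS factors. RefSeq promoters (GRCm38.p6, 250 bases before to 50 bases after the start) were matched for 41 of the 48 members and searched on both strands. Each line gives up to 30 bases, 5′ to 3′ on the strand of the gene, with the matched letters in capitals, and no matches of different motifs overlapped in the promoters of members.
Psmb8, gamma-activated site TTCNNNGAA, chr17:34198088-34198116, plus strand: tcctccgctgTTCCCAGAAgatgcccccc
Psme1, interferon-stimulated response element core (GAAA, any 2 bases, GAAA), chr14:55578493-55578522, plus strand: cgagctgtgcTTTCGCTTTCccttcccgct
Psmb5, antioxidant response element TGACNNNGC, chr14:54618024-54618052, minus strand: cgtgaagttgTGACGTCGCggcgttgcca
Psmb6, antioxidant response element TGACNNNGC, chr11:70525338-70525366, plus strand: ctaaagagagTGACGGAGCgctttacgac
Psmd2, ETS motif CCGGAAG, chr16:20651616-20651642, plus strand: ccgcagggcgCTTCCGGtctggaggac
Psmd11, ETS motif CCGGAAG, chr11:80428594-80428620, plus strand: gagggcgggtCTTCCGGgtgtgtgttt
Psmd10, CCAAT box CCAAT, chrX:140956721-140956745, minus strand: tagtactttgATTGGtcgccggaac

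The match in Psmb8 lay 97 bases before the RefSeq start, and that in Psme1 lay 9 bases after it. Matches were counted per gene, and a gene with more than 1 promoter counted if any of them matched. Among the 41 matched members, the ETS letters were in 15 (36.6%). The shares were 9.93% of all 27025 genes with RefSeq promoters and 22.6% of the 8492 of them tested here. The interferon core was in 5 (12.2%), against 3.99% of all these genes and 3.87% of the tested ones. Those 5 were Psmb3, Psmd4, Psmd9, Psme1 and Psmg4. The gamma-activated site was in 3 (7.32%, against 9.55% of all these genes and 8.36% of the tested ones), which were Psmb8, Psmd2 and Psmg1. The antioxidant response element was in 6 (14.6%, against 13.99% of all these genes and 16.96% of the tested ones). The CCAAT letters were in 14 (34.1%, against 41.1% and 43.1%). A match describes these letters only and is no measure of binding.

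Sense counts in genes came to 8873413 in the smallest library and 11277764 in the largest. Rnmt itself measured 51.5, 58.7 and 57.9 CPM in controls 1 to 3 and 41.95, 37.5 and 26.6 CPM in Rnmt cKO libraries 1 to 3 (log2 fold change -0.67, adjusted p = 0.00035, edgeR exact test). These counts cover the whole gene, and only the floxed exon is deleted, so they do not measure the completeness of deletion. The paper reports loss of reads on that exon and minimal RNMT protein in naive CD4 T cells of these mice. No library was a repeat of another, since chi-square divided by its degrees of freedom was 3.85 to 25.2 within groups. Uniquely mapped reads that fell in no gene made up 36.1%, 39.7% and 46.1% in the controls and 47.9%, 46.5% and 31.8% in Rnmt cKO, so Rnmt cKO 3 stood apart from the other 2 libraries of its group. Values are therefore also given within a low-share set (controls 1 and 2 and Rnmt cKO 3) and a high-share set (control 3 and Rnmt cKO 1 and 2), a split made after the shares were seen. All 7 markers of naive CD4 T cells were present, with a summed level of 4274 to 4545 CPM in controls and 4939 to 5456 CPM in Rnmt cKO.

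Most proteasome mRNAs lay near their control level in Rnmt cKO cells. No member was called higher and 1, Psmd10, was called lower in Rnmt cKO cells (edgeR exact test, Benjamini-Hochberg adjusted p below 0.05 over 12336 genes tested). That is 2.08% of the members, while 14.8% of all genes tested were called, 8.0% higher and 6.84% lower. At an unadjusted p below 0.05, 4 members (Psmb8, Psmd1, Psmd2 and Psmd11) were higher and 1 was lower, against 25.0% of all genes in either direction. The edgeR quasi-likelihood test, DESeq2 and limma-voom also called 0 members higher and 1 lower. Over all genes these tests called 6.43%, 5.69% and 6.04% higher and 5.16%, 5.17% and 5.07% lower. The count moved with other settings. Scaling by library size alone called 8 members higher and 1 lower (all genes 15.7% and 4.34%), the share of reads in no gene as a covariate called 8 higher and 2 lower (all genes 13.7% and 11.9%), and leaving out Rnmt cKO 3 called 0 higher and 5 lower (all genes 11.1% and 10.1%). The values of the 2 groups did not overlap for 5 members, or 10.4%, against 31.4% of all genes. These were Psmd1, Psmd2, Psmd9 and Psmd11 on the higher side, where 16.6% of all genes lay, and Psmd10 on the lower, where 14.9% lay.

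The precision of the fit limited how large an unseen difference could be. For 41 of the 48 members (85.4%) the limma-voom 95% interval of the difference lay within 1.5-fold in both directions, against 58.1% of all genes. These shares were not matched for expression level, on which the width of an interval depends. The members whose interval reached further were Psmd10, Psmb4, Psmb5, Psmg1, Psmg3, Psmg4 and Psmc3ip. The median log2 fold change was 0.02 over the 48 members and 0.01 over all genes tested, and the members ranged from -0.55 (Psmd10) to 0.30 (Psmb8).

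**Figure D1:**
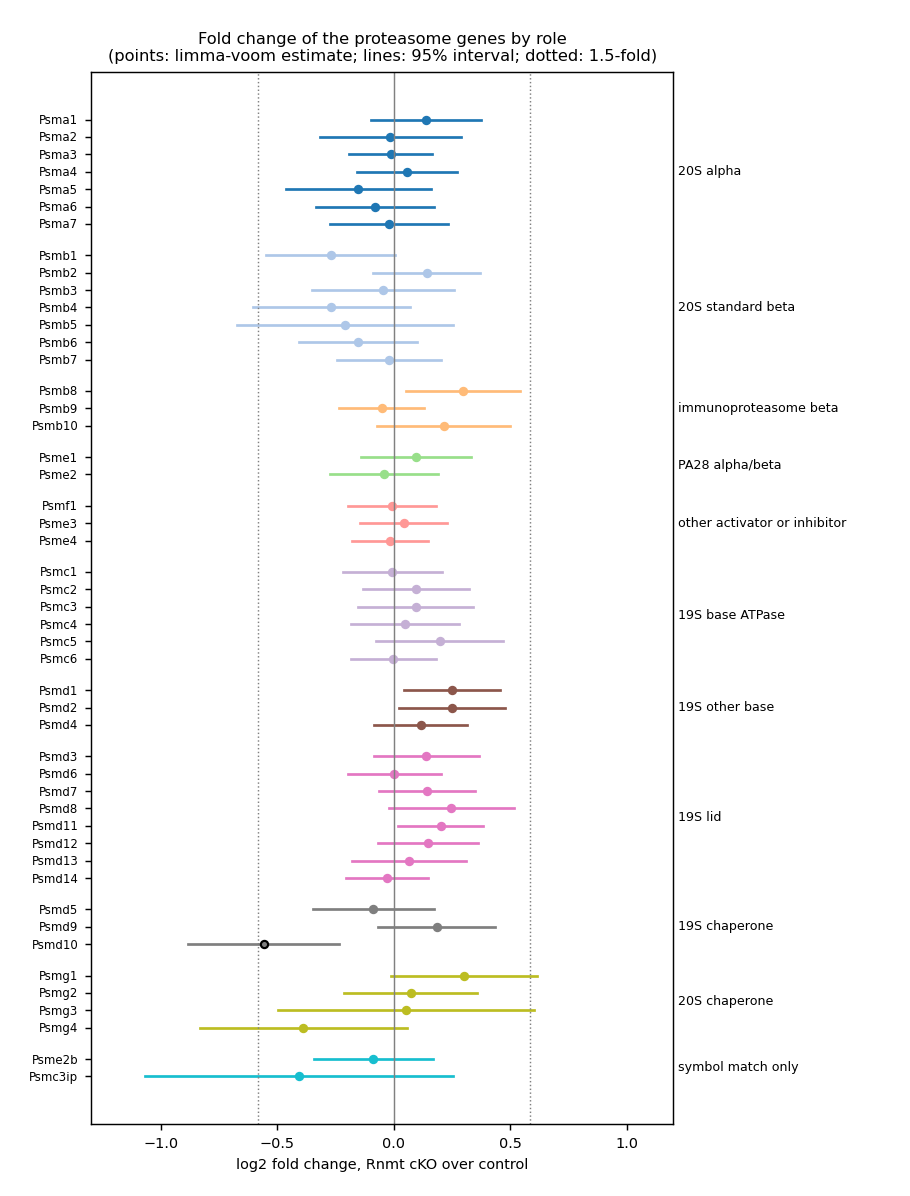
Log2 fold change of each of the 48 genes in Rnmt cKO over control, grouped by role. Points are limma-voom estimates, lines are 95% intervals, dotted lines mark 1.5-fold, and the outlined point is Psmd10, the single member past the threshold of the exact test, whose interval ran from -0.88 to -0.24.

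Psmd10 encodes gankyrin, a chaperone that holds the ATPase Psmc4 (Rpt3) during assembly of the 19S base. It lies on chromosome X, from 140956728 down to 140948429 on the minus strand (mm10, GENCODE annotation). It measured 18.5, 17.1 and 16.2 CPM in the controls and 10.9, 10.5 and 13.9 CPM in Rnmt cKO. Every Rnmt cKO library was below every control. The mean fell from 17.3 ± 1.12 CPM (SD, n = 3) to 11.7 ± 1.87 CPM (SD, n = 3), a log2 fold change of -0.55 (SE 0.14, adjusted p = 0.0092, edgeR exact test). Within the low-share set the log2 ratio was -0.35, and within the high-share set it was -0.61. The call held in 13 of 20 alternatives, with adjusted p from 0.00016 to 0.125. It did not hold without control 1 (adjusted p = 0.086), control 2 (0.064), Rnmt cKO 1 (0.073) or Rnmt cKO 2 (0.094), or with GC content and length offsets (0.054). The remaining 2 alternatives without the call used the replicate numbers as a block, although these did not pair the samples (adjusted p = 0.109 and 0.125, edgeR quasi-likelihood test).

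The other base chaperones among the members did not pass the test. Psmd9, which holds the Psmc3 and Psmc6 ATPases, measured 16.8, 16.5 and 16.2 CPM in the controls and 18.1, 19.7 and 18.5 CPM in Rnmt cKO. These groups did not overlap, but the difference was small (log2 fold change 0.18, SE 0.04, adjusted p = 0.43, edgeR exact test). Psmd5, the remaining base chaperone among the members, had a log2 fold change of -0.08. The 3 chaperones thus had estimates on both sides of 0, with a median of -0.08.

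Psmb8 encodes the chymotrypsin-like subunit of the immunoproteasome and lies in the MHC class II region of chromosome 17, from 34197721 to 34201454 on the plus strand. It measured 299.8, 256 and 249 CPM in the controls and 309.8, 299 and 384 CPM in Rnmt cKO. The groups touched, since the lowest Rnmt cKO value lay just under the highest control. The means were 269 ± 27.3 and 331 ± 46.1 CPM (SD, n = 3 each), which gave the highest log2 fold change of any member, 0.30 (SE 0.14). This missed the threshold (adjusted p = 0.085, edgeR exact test), with a 95% interval from 1.04 to 1.46-fold. The log2 ratio was 0.47 within the low-share set and 0.29 within the high-share set. Over 20 alternatives the adjusted p ran from 0.00068 to 0.335, and Psmb8 passed in 5 of them, among which were the fit without control 1 (0.045), the fit with the share of reads in no gene as a covariate (0.00068) and scaling by library size alone (0.0013).

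The other 2 immunoproteasome beta genes were further from the threshold. Psmb9, for the caspase-like site, measured 104, 104 and 94.7 CPM in the controls and 104, 92.6 and 95.6 CPM in Rnmt cKO. Its groups overlapped, with a log2 fold change of -0.05 (SE 0.07) and a 95% interval from 0.85 to 1.09-fold. Psmb10, for the trypsin-like site, measured 101, 80.9 and 73.8 CPM in the controls and 94.7, 87.2 and 114 CPM in Rnmt cKO. Its groups also overlapped, with a log2 fold change of 0.21 (SE 0.18, adjusted p = 0.37, edgeR exact test) and a 95% interval from 0.95 to 1.41-fold. Psmb9 and Psmb8 are neighbours on chromosome 17. Psmb9 lies at 34181987 to 34187764 on the minus strand and overlaps the 5′ end of the peptide transporter gene Tap1 by 212 bases, and Psmb8 starts 495 bases after the end of Tap1.

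The genes of PA28 alpha/beta, which sit 5911 bases apart on chromosome 14, gave overlapping groups. Psme1 measured 276, 233 and 218 CPM in the controls and 256, 233 and 285 CPM in Rnmt cKO (log2 fold change 0.09, SE 0.13, 95% interval 0.91 to 1.26-fold). Psme2 measured 170.1, 150.3 and 144 CPM in the controls and 145, 135 and 173 CPM in Rnmt cKO (log2 fold change -0.04, SE 0.13, 95% interval 0.83 to 1.14-fold). Both were highest in Rnmt cKO 3 and next highest in control 1, the libraries with the lowest shares of reads in no gene. Over the 3 immunoproteasome and 2 PA28 genes, 0 of 5 passed the test and the median log2 fold change was 0.09, beside -0.03 over the 14 standard 20S genes and 0.01 over all genes tested.

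The alpha subunits of the core form its outer rings and gate. None of the 7 genes passed, and 5 of 7 lay below 0. The lowest was Psma5, at 50.7, 39.5 and 40.8 CPM in the controls and 33.9, 36.1 and 47.6 CPM in Rnmt cKO (log2 fold change -0.15, SE 0.19). The highest was Psma1, at 71.7, 67.5 and 66.9 CPM in the controls and 67.8, 70.9 and 88.9 CPM in Rnmt cKO (log2 fold change 0.14, SE 0.12). In both, Rnmt cKO 3 was well above Rnmt cKO 1 and 2.

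None of the 7 standard beta genes passed either, and 6 of 7 lay below 0, with a median of -0.15. Psmb1, a beta subunit without a proteolytic site, was lowest, at 155, 132 and 132 CPM in the controls and 107, 101 and 142 CPM in Rnmt cKO (log2 fold change -0.26, SE 0.17, adjusted p = 0.22, edgeR exact test). Psmb2, another subunit of this kind, was highest, at 62.1, 52.4 and 59.8 CPM in the controls and 60.1, 59.7 and 71.9 CPM in Rnmt cKO (log2 fold change 0.14, SE 0.11). Psmb4, whose product is known as the last to join the beta ring, measured 82.6, 78.3 and 79.4 CPM in the controls and 54.1, 60.5 and 88.9 CPM in Rnmt cKO. The values of Rnmt cKO 1 and 2 were below all controls for Psmb1 and Psmb4, whereas Rnmt cKO 3 was not.

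The catalytic beta subunits that the immunoproteasome replaces had overlapping groups. Psmb5, for the chymotrypsin-like site, measured 15.8, 13.6 and 9.94 CPM in the controls and 10.1, 9.36 and 14.3 CPM in Rnmt cKO (log2 fold change -0.21, SE 0.27). Psmb6, for the caspase-like site, measured 91.8, 83.6 and 79.7 CPM in the controls and 70.4, 68.6 and 91.6 CPM in Rnmt cKO (log2 fold change -0.15, SE 0.15). Psmb7, for the trypsin-like site, measured 66.9, 59.9 and 63.6 CPM in the controls and 59.9, 56.8 and 71.3 CPM in Rnmt cKO (log2 fold change -0.02, SE 0.11). Again Rnmt cKO 3 was the highest of its group for all of them.

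The standard 20S genes shared a pattern across libraries in which Rnmt cKO 3 stood apart from the other libraries of its group. All 14 were higher in Rnmt cKO 3 than in Rnmt cKO 1 and 2, and 7 of 14 were lower in both Rnmt cKO 1 and 2 than in all controls, against 23.1% of all genes. Over the 48 members, 43 (89.6%) were higher in Rnmt cKO 3 than in the other Rnmt cKO libraries, against 41.4% of all genes. For 34 members Rnmt cKO 3 was the highest of all 6 libraries, a count without a share over all genes to set beside it. Of the controls, control 1 was highest for 34 members (70.8%), against 35.6% of all genes. The summed level of the 14 standard genes was 1206, 1045 and 1063 CPM in the controls and 968, 965 and 1254 CPM in Rnmt cKO. The median log2 ratio of these genes was 0.13 within the low-share set and -0.10 within the high-share set. Without Rnmt cKO 3, 5 members were called lower (Psma5, Psmb1, Psmb4, Psmb6 and Psmd10, edgeR exact test), beside 10.1% of all genes, and the median of the standard 20S genes was -0.20. Without both control 1 and Rnmt cKO 3, 4 members were called lower (Psmb1, Psmb4, Psmb6 and Psmd10) and 1, Psmb8, was called higher, beside 9.39% and 9.58% of all genes. The part that the share of reads in no gene had in these differences was not tested.

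**Figure D2:**
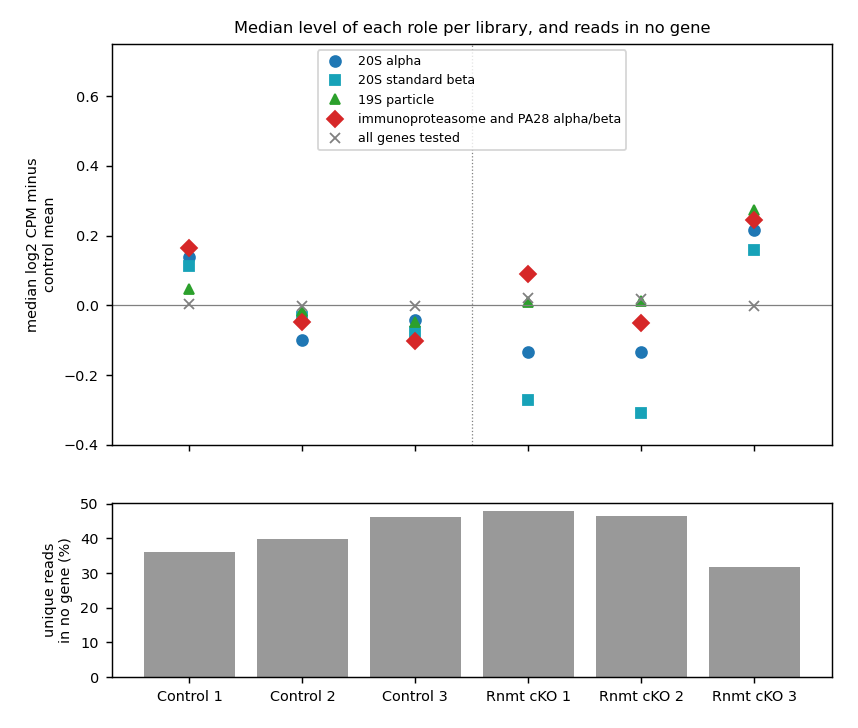
Upper panel: median over the genes of each role of log2 CPM minus the control mean, per library. Lower panel: percentage of uniquely mapped reads in no gene. The standard beta genes were at -0.27 and -0.31 in Rnmt cKO 1 and 2 and at 0.16 in Rnmt cKO 3, where the share of reads in no gene was lowest.

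Dividing by the standard core within each library removed much of this spread for Psmb8. On the scale of log2 RPKM (CPM per kilobase of exon) minus the mean log2 RPKM of the 14 standard 20S genes, Psmb8 was at 1.64, 1.62 and 1.59 in the controls and at 2.02, 1.98 and 1.95 in Rnmt cKO. These groups did not overlap, and the mean difference of 0.37 compares with SDs of 0.03 and 0.04. Psmb10 was at 0.39, 0.27 and 0.14 in the controls and at 0.63, 0.52 and 0.51 in Rnmt cKO, again without overlap, with a mean difference of 0.28. Psmb9, Psme1 and Psme2 overlapped, with differences of 0.02, 0.16 and 0.03. On this scale 13.8% of all genes tested lay wholly higher in Rnmt cKO and 8.33% wholly lower, and the median difference over all genes was 0.08. These shares are no like background, because the division can narrow the spread of genes that vary with the core more than that of others. With 3 samples against 3, the smallest two-sided p of the exact permutation test is 0.10.

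**Figure D3:**
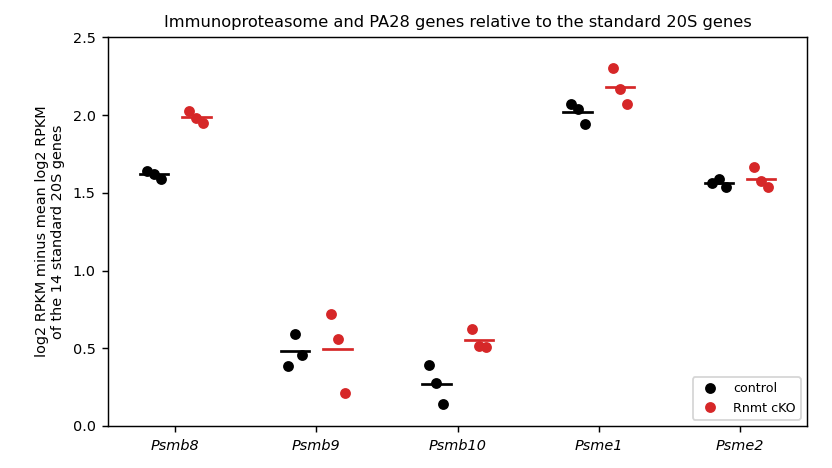
Log2 RPKM of the immunoproteasome and PA28 genes minus the mean log2 RPKM of the 14 standard 20S genes in the same library. Points are libraries and bars are group means; the groups were apart for Psmb8 (1.62 and 1.99) and Psmb10 (0.27 and 0.55) and overlapped for the others.

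Levels per length placed Psme1, Psmb8 and Psme2 above the 14 genes of the standard core in the mean of the controls. In controls Psme1 had 218 ± 26.98, Psmb8 165 ± 16.8 and Psme2 159 ± 13.9 RPKM (SD, n = 3 each), and the highest standard gene was Psmb6 at 107 ± 7.72 RPKM. Psmb8 and Psme2 were within their spread of each other. Psmb9 and Psmb10 followed at 74.7 ± 4.09 and 65.1 ± 10.9 RPKM inside the range of the standard genes, and also lay within their spread of each other. The lowest standard gene was Psmb5, at 14.6 ± 3.27 RPKM. The 19S particle genes ran from 19.5 to 56.7 RPKM and the 20S chaperones from 5.11 to 22.2 RPKM.

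Ratios were compared in 5 pairs, which set each immunoproteasome gene against the gene it replaces, and Psme1 and Psme2 each against Psme3. Psmb8 over Psmb5 was 10.5, 10.4 and 13.9 in the controls and 16.9, 17.7 and 14.8 in Rnmt cKO. All Rnmt cKO libraries were above all controls, by 1.43-fold on average (log2 difference 0.51, exact two-sided permutation p = 0.10, which is the smallest possible, 0.25 adjusted over 5 pairs). The difference was 0.50 within the low-share set and 0.32 within the high-share set. In controls the mean ratio was 11.5 with summed exon length and 9.72 with the mean length of protein-coding transcripts, so the level of the ratio depends on the length used while the difference between groups does not.

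Psmb10 over Psmb7 was 1.34, 1.196 and 1.03 in the controls and 1.40, 1.36 and 1.41 in Rnmt cKO. These groups were also apart, though narrowly (log2 difference 0.24, exact two-sided permutation p = 0.10, 0.25 adjusted). Psmb9 over Psmb6 was 0.670, 0.735 and 0.701 in the controls and 0.875, 0.797 and 0.616 in Rnmt cKO, with Rnmt cKO 3 below all controls (log2 difference 0.11, exact two-sided permutation p = 0.6). Psme1 and Psme2 were set against Psme3, which encodes the nuclear activator PA28 gamma. The log2 differences were 0.05 (exact two-sided permutation p = 0.8) and -0.08 (exact two-sided permutation p = 0.7), with overlapping groups.

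**Figure D4:**
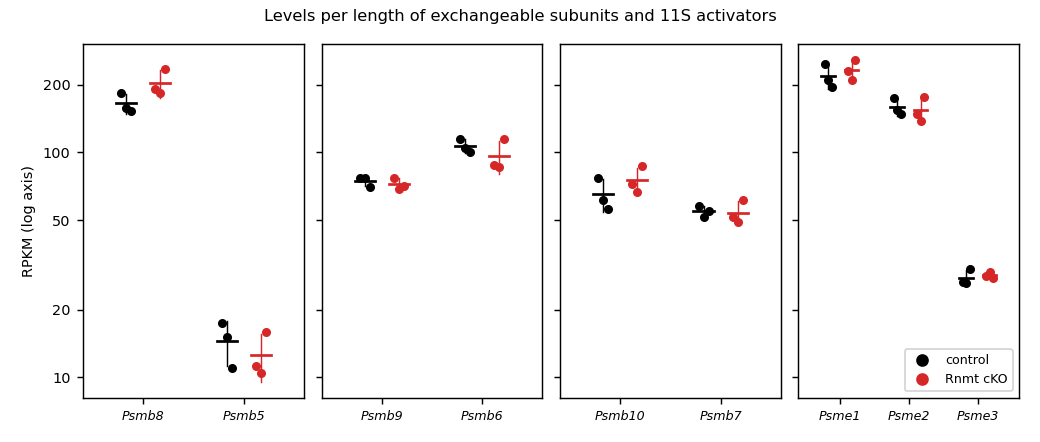
RPKM per library, on a log axis, of each immunoproteasome gene beside its standard counterpart and of Psme1 and Psme2 beside Psme3. Points are libraries, horizontal bars group means and vertical lines SD; Psmb8 lay above Psmb5 by 11.5-fold in controls and 16.4-fold in Rnmt cKO, whereas Psmb9 lay below Psmb6 in both groups.

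None of the 17 genes of the 19S particle passed the test. Of these, 14 had a log2 fold change above 0, beside 6439 of all 12336 genes, the median was 0.12, and 3 had an unadjusted p below 0.05. The higher values came mainly from Rnmt cKO 3, since the median log2 deviation of these genes from the control mean was 0.05, -0.02 and -0.05 in the controls and 0.0091, 0.013 and 0.27 in Rnmt cKO, which left Rnmt cKO 1 and 2 below control 1. The median was 0.23 within the low-share set and 0.08 within the high-share set. Their median exon length was 1989 bases, beside 1172.5 bases for the standard 20S genes. Over the 48 members, Spearman's rho of log2 fold change with exon length was 0.29, and over all genes tested it was 0.03, as a description across genes measured in the same libraries.

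Psmd1 and Psmd2, the large scaffold subunits of the base that bind ubiquitin receptors and shuttle factors, did not overlap between groups. Psmd1 measured 61.8, 64.8 and 70.03 CPM in the controls and 70.9, 77.4 and 85.6 CPM in Rnmt cKO (log2 fold change 0.25, SE 0.09, adjusted p = 0.10, edgeR exact test). Psmd2 measured 142, 132 and 129.6 CPM in the controls and 146, 148 and 188 CPM in Rnmt cKO (log2 fold change 0.26, SE 0.13, adjusted p = 0.13, edgeR exact test). Both were higher in every Rnmt cKO library by small margins, and Rnmt cKO 3 was the highest. Psmd4, a ubiquitin receptor, was the lowest of the 3 non-ATPase base genes, at 109, 105 and 98.6 CPM in the controls and 109, 104 and 126 CPM in Rnmt cKO (log2 fold change 0.12, SE 0.09).

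In the lid, which carries the deubiquitinase, Psmd11 was the gene whose groups did not overlap. It measured 55.6, 57.8 and 60.2 CPM in the controls and 64.2, 64.5 and 70.9 CPM in Rnmt cKO (log2 fold change 0.20, SE 0.06, adjusted p = 0.18, edgeR exact test). Psmd8 was the highest of the 8 lid genes, at 113, 98.7 and 91.8 CPM in the controls and 116, 103 and 142 CPM in Rnmt cKO (log2 fold change 0.25, SE 0.16). Psmd14, the deubiquitinase itself, was the lowest, at 81.7, 82.9 and 87.1 CPM in the controls and 79.3, 79.3 and 88.4 CPM in Rnmt cKO (log2 fold change -0.03, SE 0.06).

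The 6 ATPases, whose ring unfolds substrates, ran from 0.00 for Psmc6 to 0.21 for Psmc5 on the log2 scale of fold change. Psmc6 measured 80.6, 73.4 and 79.5 CPM in the controls and 73.8, 76.3 and 82.7 CPM in Rnmt cKO. Psmc5 measured 48.9, 47.6 and 45.6 CPM in the controls and 47.7, 50.2 and 66.3 CPM in Rnmt cKO. For Psmc5, Rnmt cKO 3 alone stood clear of the controls.

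Set against the mean of the standard 20S genes in the same library, 7 of the 17 genes of the 19S particle (41.2%) lay wholly higher in Rnmt cKO and 0 lay wholly lower, while 13.8% of all genes tested lay wholly higher. These were Psmc3, Psmc5, Psmd1, Psmd2, Psmd8, Psmd12 and Psmd13. The median difference of the 17 genes on this scale was 0.18, beside 0.08 over all genes. Of the 34 members outside the standard core, 10 lay wholly higher and 2, Psmd10 and Psmg4, wholly lower. Most members shared a pattern across libraries with the standard core. Dividing by it can narrow their spread more than that of other genes, so the share over all genes is no like background. Without the division, the groups did not overlap for 3 of the 17 genes (17.6%), against 31.4% of all genes.

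None of the 4 core chaperone genes passed the test, and the 95% interval of 3 of them reached beyond 1.5-fold. Psmg1 measured 19.99, 17.7 and 14.4 CPM in the controls and 20.7, 19.6 and 23.3 CPM in Rnmt cKO (log2 fold change 0.29, SE 0.16, adjusted p = 0.24, edgeR exact test). Psmg4, which pairs with Psmg3, measured 15.9, 11.2 and 9.94 CPM in the controls and 8.88, 8.01 and 10.8 CPM in Rnmt cKO (log2 fold change -0.41, SE 0.24, adjusted p = 0.23, edgeR exact test). These members of a single assembly pathway thus had estimates on opposite sides of 0, and neither passed the test.

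The remaining regulators lay close to their control level. Psme4, which encodes the activator PA200, measured 135, 137 and 141 CPM in the controls and 132, 143 and 134 CPM in Rnmt cKO, with a 95% interval from 0.88 to 1.11-fold. Psme3 measured 71.01, 69.97 and 80.6 CPM in the controls and 75.6, 78.6 and 73.7 CPM in Rnmt cKO, with a 95% interval from 0.91 to 1.17-fold. Psmf1, which encodes the inhibitor PI31, had means of 41.4 ± 0.617 and 41.2 ± 1.67 CPM (SD, n = 3 each). For these genes the groups overlapped and Rnmt cKO 3 was not the highest library.

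Of 25 further genes of the proteasome pathway that the symbol rule leaves out, 22 were found and tested, and 1 was called higher and 0 lower. Of all genes tested, 8.0% were called higher and 6.84% lower. Their median log2 fold change was 0.00. The gene called higher was Adrm1, which encodes Rpn13, a ubiquitin receptor of the 19S base that binds Psmd1. It measured 43.0, 49.3 and 40.8 CPM in the controls and 73.9, 61.8 and 76.6 CPM in Rnmt cKO. Every Rnmt cKO value lay above every control, and the log2 fold change was 0.67 (SE 0.13, adjusted p = 1.2e-06, edgeR exact test). Uchl5, the deubiquitinase that Rpn13 recruits, had a log2 fold change of -0.08 (adjusted p = 0.79, edgeR exact test). Nfe2l1, the transcription factor known for raising proteasome genes when proteasome activity is short, had 69.4 ± 5.49 and 79.2 ± 2.07 CPM (SD, n = 3 each), with a log2 fold change of 0.19 (adjusted p = 0.21, edgeR exact test). Nfe2l2 was at -0.01, and Pomp, the chaperone that matures the core, was at 0.17 (adjusted p = 0.44, edgeR exact test).

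Among 14 genes that work with the immunoproteasome in antigen presentation or induce it, 4 were called higher and 0 lower, and the median log2 fold change was 0.17. For comparison, 8.0% of all genes tested were called higher and 6.84% lower. Those called included Tapbp, the peptide-loading chaperone tapasin (0.38, adjusted p = 0.016), and the interferon signalling genes Irf1 (0.25, adjusted p = 0.045) and Jak2 (0.40, adjusted p = 0.00082), all by the edgeR exact test. Tap1 measured 285, 257 and 229 CPM in the controls and 319, 299 and 317 CPM in Rnmt cKO. Its groups did not overlap and its log2 fold change was 0.28 (adjusted p = 0.058, edgeR exact test). Of its neighbours, Psmb8 was at 0.30 and Psmb9, which overlaps its 5′ end, at -0.05. Of 17 interferon-responsive genes outside the proteasome, 12 were called higher and 1 lower, beside the same shares of all genes. Their median log2 fold change was 0.60.

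Markers of other cells and of proliferation moved with genotype in these libraries. The counts below stand beside 8.0% of all genes tested called higher and 6.84% called lower. Of 7 B cell markers 5 were called higher, with a summed level of 42.1 to 48.9 CPM in controls and 54.3 to 93.9 CPM in Rnmt cKO. All 5 proliferation markers were called higher, with a sum of 32.8 to 41.7 CPM in controls and 232 to 268 CPM in Rnmt cKO. They mark cycling cells of any type, which can be the sorted T cells themselves. The myeloid and dendritic sum was 24.9 to 30.3 CPM in controls and 30.1 to 41.4 CPM in Rnmt cKO, with 1 of 4 tested genes called higher. Markers of CD8 T cells (2 of 2), NK cells (1 of 1 tested) and erythroid cells (2 of 2 tested) were called lower, with sums of 21.7 to 23.3 and 13.5 to 17.3 CPM, 7.40 to 15.5 and 4.81 to 6.36 CPM, and 4.53 to 7.29 and 0.634 to 1.17 CPM. No defining marker was at or below 3 counts in all libraries. In bulk samples fewer cells of a type and less RNA per cell cannot be told apart. The part of other cell types or of cycling cells in the values of Psmb8, Psmd10 and Adrm1 was not tested.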

How the data were processed

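Sequencing reads (75-base pairs) were aligned by the authors to mm10 with STAR 2.5.2b and the GENCODE vM12 basic annotation. The values used are raw counts per gene, deposited without normalization. The authors also deposited a comparison table with a scaled signal per library, from their edgeR exact test, and it supplied the symbols. Its log2 columns and p-values, made by the authors in edgeR, were not used. The sense counts were used, because these matched the scaled signal within 1% for 100% of genes.

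Genes above 1 CPM in at least 3 samples were tested with the edgeR 4.0.16 exact test (TMM, tagwise dispersions, Benjamini-Hochberg, threshold 0.05), after tests on simulated data. Intervals came from limma-voom (limma 3.58.1). RPKM used exon lengths of GENCODE vM21, which shares the build. Ratios were compared by exact permutation. SEs came from log2 CPM with a prior count of 2.

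Alternatives were quasi-likelihood, DESeq2 1.42.0, limma-voom, other scalings, filters and strands, offsets, a covariate, a block and left-out libraries. Members described in full were the genes of the 5 ratios, those past the threshold and the extremes of each role. Others were chosen after their values were seen. The members and lists were chosen with earlier results of these data known. Some genes of these lists are not reported here.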

Additional observations from a re-analysis of the deposited data

How the results depend on the processing

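Psmd10 was lower in all 20 alternatives and past the threshold in 13 of them. The shared direction adds no support, because every Rnmt cKO value already lay below every control in the main fit. Leaving out 1 library at a time gave 0 to 1 members called higher and 0 to 5 called lower. Over all genes these fits called 5.36% to 11.1% higher and 4.53% to 10.1% lower. The median log2 fold change of the standard 20S genes ran from -0.20 to 0.021. With control 1 or 2 or Rnmt cKO 1 or 2 left out, 0 members were called lower, against 4.53% to 4.87% of all genes. Without Rnmt cKO 3, 5 were (all genes 10.1%). Without both control 1 and Rnmt cKO 3 (added after the data were seen) 1 was called higher and 4 lower (all genes 9.58% and 9.39%). Scaling by library size alone raised the median of all genes by 0.12, called 8 members higher and 1 lower (all genes 15.7% and 4.34%), and put the standard 20S median at 0.09. The covariate for reads in no gene called 8 higher and 2 lower (all genes 13.7% and 11.9%), with the same 8 symbols higher (Psmb8, Psmb10, Psmc5, Psmd1, Psmd2, Psmd8, Psmd11 and Psmg1). GC content and length offsets called 1 higher and 0 lower (all genes 7.42% and 6.01%). The cause was not tested in any of these.

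Replicate numbers did not pair the samples, since same-numbered libraries correlated at -0.21, -0.02 and -0.35. With the replicate block 0 members were called higher and 0 lower (all genes 3.49% and 2.24%), likewise with the offsets added (all genes 4.39% and 3.11%). The mean paired difference of Psmb8 over Psmb5 was 0.51, which equals the unpaired difference by arithmetic (exact paired permutation p = 0.25). The ratios of Psmb9 to Psmb6 and of Psme1 and Psme2 to Psme3 changed sign in 5 of their left-out fits. The log2 differences of Psmb8 over Psmb5 and of Psmb10 over Psmb7 stayed above 0 in theirs. That outcome was fixed in advance, because every Rnmt cKO ratio lay above every control ratio, so it adds no support. Of the 48 genes, 35 were never past the threshold.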
